A study of Setaria viridis with 23 samples.

Results

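The genes described here are the 30 *Setaria viridis* genes that the study listed as related to auxin, of 35214 primary transcripts in the deposited count table. The study drew them from gene clusters whose transcript levels moved over early inflorescence development, took only the 2 groups of clusters that were highest in the middle stages, leaving aside those highest at the first or the last stage, kept genes with homology to genes of auxin synthesis, transport, signaling or response, and applied a minimum on their summed level over the 6 stages. The same 23 libraries that chose the genes are the ones described here, so the stage levels below are a description and carry no p-value. Of the 30 genes, 8 came from the group highest at 12 and 14 DAS and 22 from the group highest later. By function, 7 genes belong to synthesis and metabolism, 6 to transport, 9 to signaling and 8 to response.

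Auxin, mainly indole-3-acetic acid (IAA), is made from tryptophan by an aminotransferase followed by a YUCCA monooxygenase, and GH3 enzymes attach the hormone to amino acids. It moves from cell to cell through AUX/LAX influx carriers and PIN efflux carriers, and in grass inflorescences the places where it accumulates precede the outgrowth of axillary meristems, the groups of stem cells that become branches and spikelets. In the nucleus auxin triggers the breakdown of Aux/IAA repressors, which frees auxin response factors (ARFs) to regulate target genes such as the small SAUR genes.

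All libraries came from inflorescence primordia of 1 genotype, the reference accession A10.1, grown in a chamber with no treatment and dissected at 10, 12, 14, 15, 16 or 18 days after sowing (DAS). Each library is a pool of primordia, with 4 libraries per stage and 3 (replicates 1, 2 and 4) at 12 DAS. The study places the transition to branching at the first stages and spikelet and floret formation at the last. Levels are in CPM, the counts of a gene relative to its library's total after TMM scaling, values at a stage are given in the order of the replicate numbers, and a difference is a log2 fold change with its standard error (SE) from edgeR. No transcript lengths were used, so levels are compared between libraries and not between genes. In these bulk libraries, fewer cells of a type and less RNA per cell cannot be told apart.

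Library totals ranged from 7630744 to 24467495 counts, and the smallest belonged to replicates 2 (7630744) and 1 (8964218) of 15 DAS. The libraries of 15 DAS and later were sequenced single-end and the earlier ones paired-end, with the second read set aside. Sequencing run and stage therefore cannot be told apart between 14 and 15 DAS, or between any earlier and any later stage across that step. A list of 8 inflorescence meristem genes, including the meristem marker SvKn1, summed to 307 CPM in the lowest library, at 10 DAS, and to 1188 CPM in the highest, at 14 DAS. Of these 8 genes, SvRa1 and SvBd1 held at most 0.151 CPM at 10 and 12 DAS. The sum of 5 photosynthesis genes, used as a check for leaf tissue, had stage means of 87.0, 64.9, 47.9, 69.9, 45.5 and 76.8 CPM from 10 to 18 DAS, and no library of 14 or 16 DAS reached any of the other stages. Rubisco small chain held at most 2.34 CPM. The libraries of 15 DAS stood apart from each other, since the median SD of log2 level over the listed genes with a stage mean of at least 1 CPM (27 or 28 genes) was 0.34 there and between 0.14 and 0.26 at the other stages. Over all genes of that level the median SD was 0.22 at 15 DAS and between 0.13 and 0.18 at the others. Of the 28 listed genes at 15 DAS, replicate 4 was the lowest library for 10 and the highest for 10, replicate 2 the lowest for 9 and the highest for 10, replicate 1 the lowest for 1 and the highest for 8, and replicate 3 the lowest for 8 and the highest for 0.

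**Figure D1:**
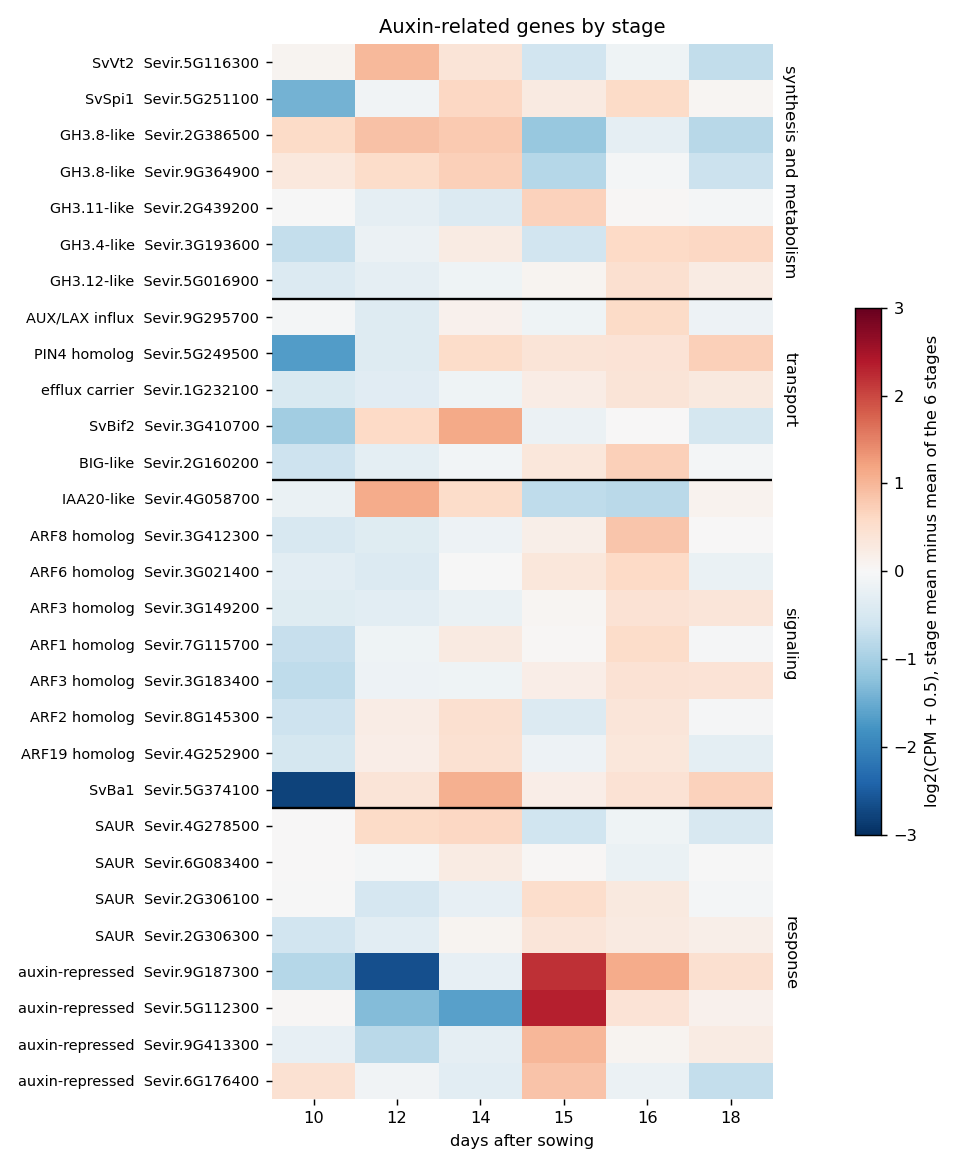
Stage means of 29 of the genes on the log2(CPM + 0.5) scale (color), each relative to the mean of its own 6 stage means, with stages in days after sowing as columns and genes grouped by function as rows. Most transport and signaling genes are blue, below their own mean, at 10 DAS, and the 4 auxin-repressed genes at the bottom are darkest red at 15 DAS.

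By class, the highest stage differed. That 0 of the 30 genes had their highest mean at 10 DAS and few at 18 DAS follows from the choice of clusters, and nothing is read from it. The lowest mean was at 10 DAS for 16 genes, 7 of them in signaling and 5 in transport, which the same choice favors. The highest mean fell at 12 DAS for 3 genes, at 14 DAS for 9, at 15 DAS for 7, at 16 DAS for 9 and at 18 DAS for 2. Of the 7 highest at 15 DAS, 6 were response genes. Relative to its own 6-stage mean on the log2(CPM + 0.5) scale, the median signaling gene was at -0.57 ± 0.14 (SD, n = 4) at 10 DAS and at 0.46 ± 0.02 (n = 4) at 16 DAS. For transport the same value was -0.60 ± 0.08 at 10 DAS and 0.42 ± 0.06 at 16 DAS. The stages 10 and 16 DAS lie on either side of the change of sequencing run, so run and stage cannot be told apart in these differences. The sum of the photosynthesis genes was highest at 10 DAS and lowest at 14 and 16 DAS. That of the 8 meristem genes had stage means of 382, 768, 1029, 959, 1033 and 769 CPM from 10 to 18 DAS. The part of either sum in these profiles was not tested. Synthesis and metabolism stood at 0.36 ± 0.11 at 14 DAS and at -0.45 ± 0.39 at 15 DAS. The median response gene was at -0.43 ± 0.12 (n = 3) at 12 DAS and at 0.61 ± 0.66 at 15 DAS, where its 4 libraries spread from -0.26 to 1.34. The class joins 4 SAUR and 4 auxin-repressed genes, which differed. The median SAUR gene was at -0.14 ± 0.11 at 12 DAS and 0.19 ± 0.13 at 15 DAS. For the auxin-repressed genes the median was -1.06 ± 0.17 at 12 DAS and 1.54 ± 1.54 at 15 DAS.

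Both biosynthesis genes were above their 10 DAS level at 12 DAS. SvVt2 (Sevir.5G116300) is the ortholog of maize vanishing tassel2, a tryptophan aminotransferase of the first step of IAA synthesis, and its stage mean was highest at 12 DAS. It held 16.4, 17.6, 14.3 and 15.1 CPM at 10 DAS, 36.4, 26.3 and 27.4 CPM at 12 DAS and 19.0, 22.5, 19.2 and 17.2 CPM at 14 DAS. Levels were 12.6, 10.7, 9.72 and 6.80 CPM at 15 DAS, 14.3, 13.3, 14.4 and 12.0 CPM at 16 DAS and 6.08, 9.33, 9.04 and 10.6 CPM at 18 DAS. All 3 libraries of 12 DAS lay above every other library, and all those of 15, 16 and 18 DAS lay at or below 14.4 CPM. The log2 fold change was 0.92 (SE 0.17) for 12 against 10 DAS and -0.62 (SE 0.17) for 14 against 12 DAS.

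SvSpi1 (Sevir.5G251100), the ortholog of maize sparse inflorescence1 and a YUCCA-like monooxygenase, came later. Its levels were 5.27, 6.47, 6.12 and 5.88 CPM at 10 DAS, 17.6, 15.2 and 13.8 CPM at 12 DAS and 24.4, 31.4, 25.5 and 21.7 CPM at 14 DAS. They were 23.5, 29.0, 19.3 and 12.3 CPM at 15 DAS, 30.0, 30.3, 21.0 and 20.1 CPM at 16 DAS and 11.7, 14.7, 22.5 and 21.9 CPM at 18 DAS. The 3 first stages did not overlap, while from 14 DAS on the ranges of neighboring stages overlapped. For 14 against 10 DAS the log2 fold change was 2.12 (SE 0.23), beside 0.30 (SE 0.16) for SvVt2. The gene of the first step and the gene of the late step had their highest means at 12 and 14 DAS.

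**Figure D2:**
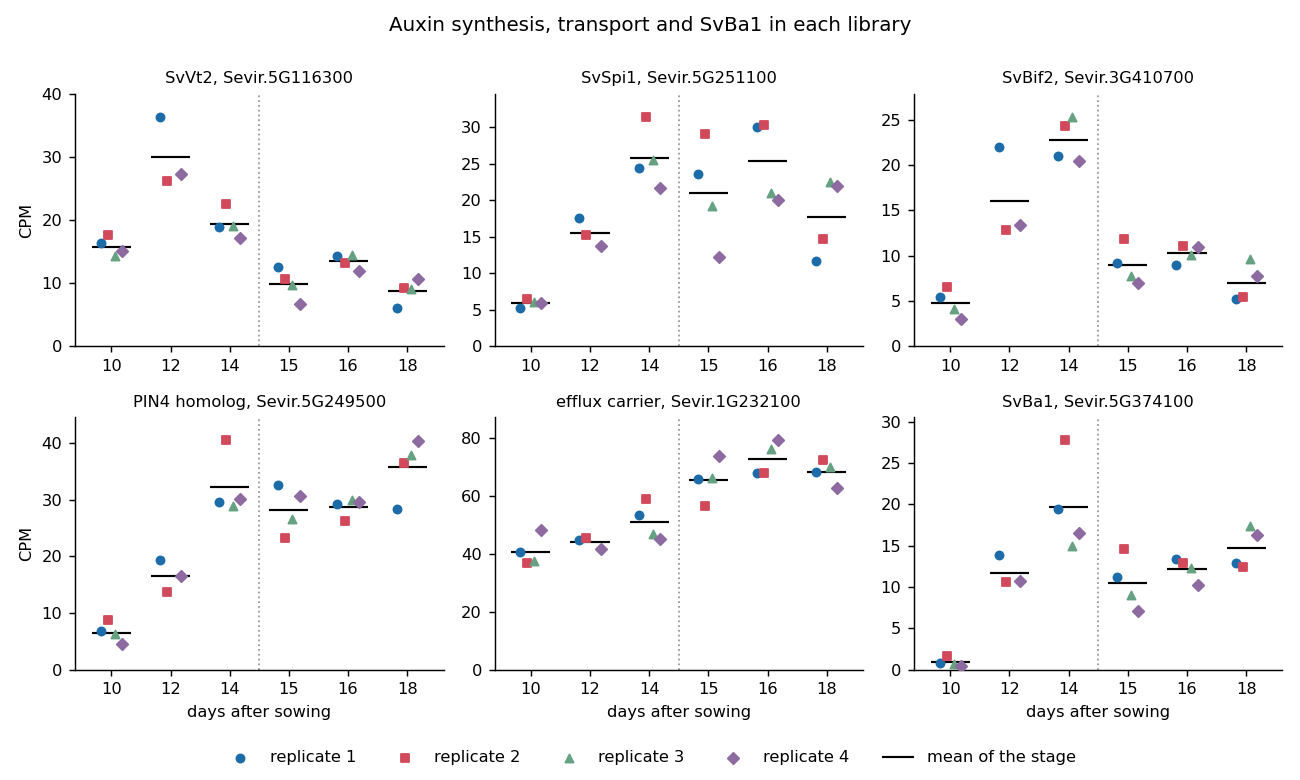
CPM (linear axes from 0) of SvVt2, SvSpi1, SvBif2, the PIN4 homolog, the efflux carrier Sevir.1G232100 and SvBa1 in each of the 23 libraries by days after sowing, with a marker per replicate, a bar at the stage mean and a dotted line where the sequencing run changed. SvVt2 is highest at 12 DAS, SvBif2 and SvBa1 at 14 DAS, and SvBa1 starts from 0.937 CPM on average at 10 DAS.

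The 5 GH3 genes did not move together. Sevir.2G386500 and Sevir.9G364900 share the rice gene OsGH3.8 as their closest annotated relative, a GH3 enzyme that conjugates IAA, and both were lower from 15 DAS on. Sevir.2G386500 held 106, 70.7, 107 and 56.5 CPM at 10 DAS, 149, 78.9 and 84.4 CPM at 12 DAS and 139, 73.0, 101 and 77.6 CPM at 14 DAS. It then held 31.5, 48.1, 15.7 and 14.8 CPM at 15 DAS, 44.6, 60.1, 38.5 and 40.7 CPM at 16 DAS and 35.3, 19.1, 43.2 and 28.6 CPM at 18 DAS. Only 1 later library, replicate 2 of 16 DAS, exceeded the lowest of the 11 earlier ones, and replicates 3 and 4 of 15 DAS were the 2 lowest of all. Its log2 fold change was -1.86 (SE 0.33) for 15 against 14 DAS, and that of Sevir.9G364900 was -1.53 (SE 0.29). Sevir.9G364900 lay between 40.8 and 131 CPM in the 11 libraries up to 14 DAS and between 18.1 and 56.4 CPM in the 12 later ones, so its ranges overlapped.

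The mean balance between these close relatives was also different from 15 DAS on, where the sequencing run changed, so run and stage cannot be told apart. The log2 ratio of Sevir.2G386500 to Sevir.9G364900 was 0.23 ± 0.22 (SD, n = 4) at 10 DAS, 0.29 ± 0.08 (n = 3) at 12 DAS and 0.05 ± 0.08 at 14 DAS. It was -0.33 ± 0.30 at 15 DAS, -0.23 ± 0.32 at 16 DAS and -0.22 ± 0.26 at 18 DAS. At 12 DAS all libraries were above 0 and at 15 DAS all were below it. At 16 and 18 DAS they lay on both sides and overlapped the range of 10 DAS. Salmon divides reads that match 2 transcripts between them, so how reads were split between the members of this pair is uncertain.

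The other 3 GH3 genes differed from the pair in their highest stage. Sevir.2G439200, annotated as GH3.11-like, was highest at 15 DAS with 26.2, 19.5, 35.9 and 45.9 CPM, against 13.2, 13.8, 13.1 and 15.3 CPM at 14 DAS and 18.1, 16.6, 18.8 and 23.4 CPM at 16 DAS. Its 15 DAS libraries were all above those of 14 DAS, with a log2 fold change of 1.22 (SE 0.19), and replicates 4 and 3, in which the GH3.8-like pair was lowest, were the highest. Sevir.3G193600, GH3.4-like, had a dip at 15 DAS. It held 164, 211, 111 and 113 CPM at 14 DAS, 114, 106, 57.8 and 63.6 CPM at 15 DAS and 202, 180.0, 206 and 157 CPM at 16 DAS. All libraries of 16 DAS lay above all of 15 DAS, with a log2 fold change of 1.13 (SE 0.21), and those of 14 and 15 DAS overlapped. Sevir.5G016900, whose closest Arabidopsis relative is JAR1, an enzyme that conjugates jasmonate and not auxin, ranged from 24.2 to 67.8 CPM with overlap between all neighboring stages.

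**Figure D3:**
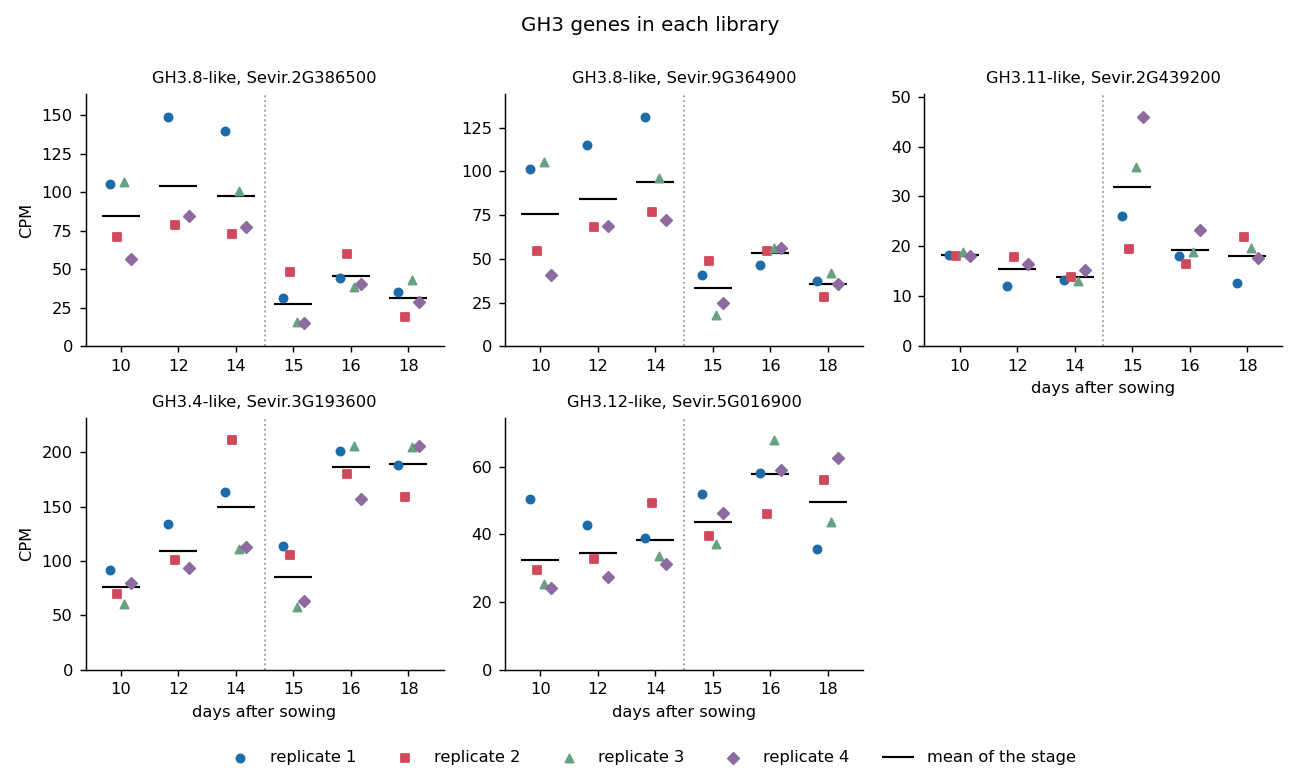
CPM (linear axes from 0) of the 5 GH3 genes in each library by days after sowing, with a marker per replicate, a bar at the stage mean and a dotted line where the sequencing run changed. At 15 DAS replicates 3 and 4 are the lowest for both GH3.8-like genes and the highest for the GH3.11-like gene, at 35.9 and 45.9 CPM.

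Of the 6 transport genes, 5 had their lowest mean at 10 DAS. SvBif2 (Sevir.3G410700) is the ortholog of maize barren inflorescence2, a PINOID-like kinase that acts on PIN carriers, and was highest at 14 DAS. It held 5.51, 6.52, 4.18 and 2.98 CPM at 10 DAS, 22.0, 12.8 and 13.3 CPM at 12 DAS and 21.0, 24.3, 25.3 and 20.4 CPM at 14 DAS. Levels were 9.21, 11.8, 7.82 and 7.002 CPM at 15 DAS, 8.98, 11.1, 10.0 and 11.004 CPM at 16 DAS and 5.22, 5.48, 9.65 and 7.80 CPM at 18 DAS. The libraries of 12 and 14 DAS were all above those of the other 4 stages. The log2 fold change was 2.22 (SE 0.22) for 14 against 10 DAS and -1.36 (SE 0.22) for 15 against 14 DAS.

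An efflux carrier of the class kept its later level. Sevir.5G249500, whose closest Arabidopsis relative is PIN4, held 6.79, 8.73, 6.30 and 4.46 CPM at 10 DAS, 19.3, 13.7 and 16.5 CPM at 12 DAS and 29.5, 40.5, 28.8 and 30.1 CPM at 14 DAS. It held 32.5, 23.3, 26.5 and 30.6 CPM at 15 DAS, 29.2, 26.3, 29.9 and 29.7 CPM at 16 DAS and 28.4, 36.5, 37.9 and 40.4 CPM at 18 DAS. The first 3 stages did not overlap, and every later library was above every one of 12 DAS. Its log2 fold change was 2.28 (SE 0.17) for 14 against 10 DAS and -0.19 (SE 0.15) for 15 against 14 DAS.

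BIG-like Sevir.2G160200, related to a large Arabidopsis protein needed for normal polar auxin transport, was highest at 16 DAS. Its levels were 303, 281, 249 and 333 CPM at 10 DAS, 454, 397, 369 and 474 CPM at 14 DAS and 523, 498, 583 and 650.3 CPM at 15 DAS. They were 719, 693, 733 and 776 CPM at 16 DAS and 431, 436, 443 and 392 CPM at 18 DAS. All 4 libraries of 16 DAS were above every other library, with a log2 fold change of -0.78 (SE 0.10) for 18 against 16 DAS. The AUX/LAX influx gene Sevir.9G295700 had its highest mean at 16 DAS too, at 199, 204, 216 and 187 CPM, against 149, 148, 95.0 and 107 CPM at 15 DAS and 109.8, 103, 149.7 and 129 CPM at 18 DAS. The libraries of 16 DAS were again above all others of the series, which reached at most 161 CPM. A further efflux carrier, Sevir.1G232100, lay between 36.8 and 48.2 CPM at 10 DAS and between 67.9 and 79.2 CPM at 16 DAS, with overlap of neighboring stages.

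In the signaling class, 7 of the 9 genes are ARFs by their closest Arabidopsis and rice relatives, although the study's list notes them as AUX/IAA, and 5 of these 7 had their highest mean at 16 DAS. Sevir.3G412300, related to ARF8, which acts in flower maturation in Arabidopsis, held 236, 187, 155 and 194 CPM at 10 DAS and 259.7, 235, 205 and 254 CPM at 14 DAS. It held 329, 275, 263 and 345 CPM at 15 DAS, 494, 445, 478 and 489 CPM at 16 DAS and 235, 268, 310.1 and 257 CPM at 18 DAS. Every library of 16 DAS was above every other library. The log2 fold change was 0.65 (SE 0.12) for 16 against 15 DAS and -0.83 (SE 0.12) for 18 against 16 DAS.

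The ARF6 homolog Sevir.3G021400, of the same Arabidopsis subfamily as ARF8, had a like course. It held 415, 373, 301 and 347 CPM at 10 DAS, 430.1, 459.9, 412 and 474 CPM at 14 DAS and 575, 595, 552 and 520.2 CPM at 15 DAS. At 16 DAS it held 705, 655, 674 and 668 CPM, and at 18 DAS 334, 384, 423 and 401 CPM. From 14 to 16 DAS each stage lay above the one before with no overlap, and 18 DAS lay within the range of 10 DAS but for 1 library. The log2 fold change for 18 against 16 DAS was -0.81 (SE 0.10), beside -0.59 (SE 0.11) for Sevir.7G115700, a homolog of ARF1, a repressor in Arabidopsis. Sevir.7G115700 held from 201 to 252 CPM at 16 DAS and from 134 to 169.5 CPM at 18 DAS, after 90.2 to 108 CPM at 10 DAS.

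The pair of ARF3 homologs differed from these in staying high at 18 DAS. ARF3 (ETTIN) lacks the domain that binds Aux/IAA repressors and patterns floral organs in Arabidopsis. Sevir.3G149200 held 383, 305, 323 and 299 CPM at 10 DAS, 594, 582, 540.4 and 580.5 CPM at 16 DAS and 475, 544, 605 and 556 CPM at 18 DAS. Sevir.3G183400 held 133, 120.3, 118 and 101 CPM at 10 DAS, 208, 167 and 169.8 CPM at 12 DAS and 275, 286, 263 and 258 CPM at 16 DAS. At 18 DAS it held 244, 233, 319 and 265 CPM, so for both genes the last 2 stages overlapped, with log2 fold changes of -0.07 (SE 0.10) and -0.03 (SE 0.14). Between 10 and 12 DAS the pair parted. The log2 ratio of Sevir.3G149200 to Sevir.3G183400 was 1.47 ± 0.10 (SD, n = 4) at 10 DAS and 0.91 ± 0.04 (n = 3) at 12 DAS, with no overlap, and its later stage means lay between 0.95 and 1.08. At 15 DAS the libraries spread from 0.700 to 1.335, up to just below the lowest of 10 DAS at 1.337. How reads were split between these 2 genes is uncertain for the reason given above.

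The remaining ARFs were highest at 14 DAS and had a dip at 15 DAS. Sevir.8G145300, a homolog of the Arabidopsis repressor ARF2, held 522, 408, 418 and 442 CPM at 10 DAS, 958, 755 and 707 CPM at 12 DAS and 1091, 962, 898 and 928 CPM at 14 DAS. It held 629, 508, 378 and 594 CPM at 15 DAS, 885, 892, 917 and 889.9 CPM at 16 DAS and 565, 725, 778 and 668 CPM at 18 DAS. Levels at 15 DAS were below those of 14 and 16 DAS in every library, with log2 fold changes of -0.88 (SE 0.13) and 0.76 (SE 0.13). Sevir.4G252900, a homolog of the activator ARF19, held 257, 214, 201 and 201 CPM at 14 DAS, 156, 145, 128 and 135 CPM at 15 DAS and 189, 181, 214 and 215 CPM at 16 DAS. Here too 15 DAS did not overlap with its neighbors.

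**Figure D4:**
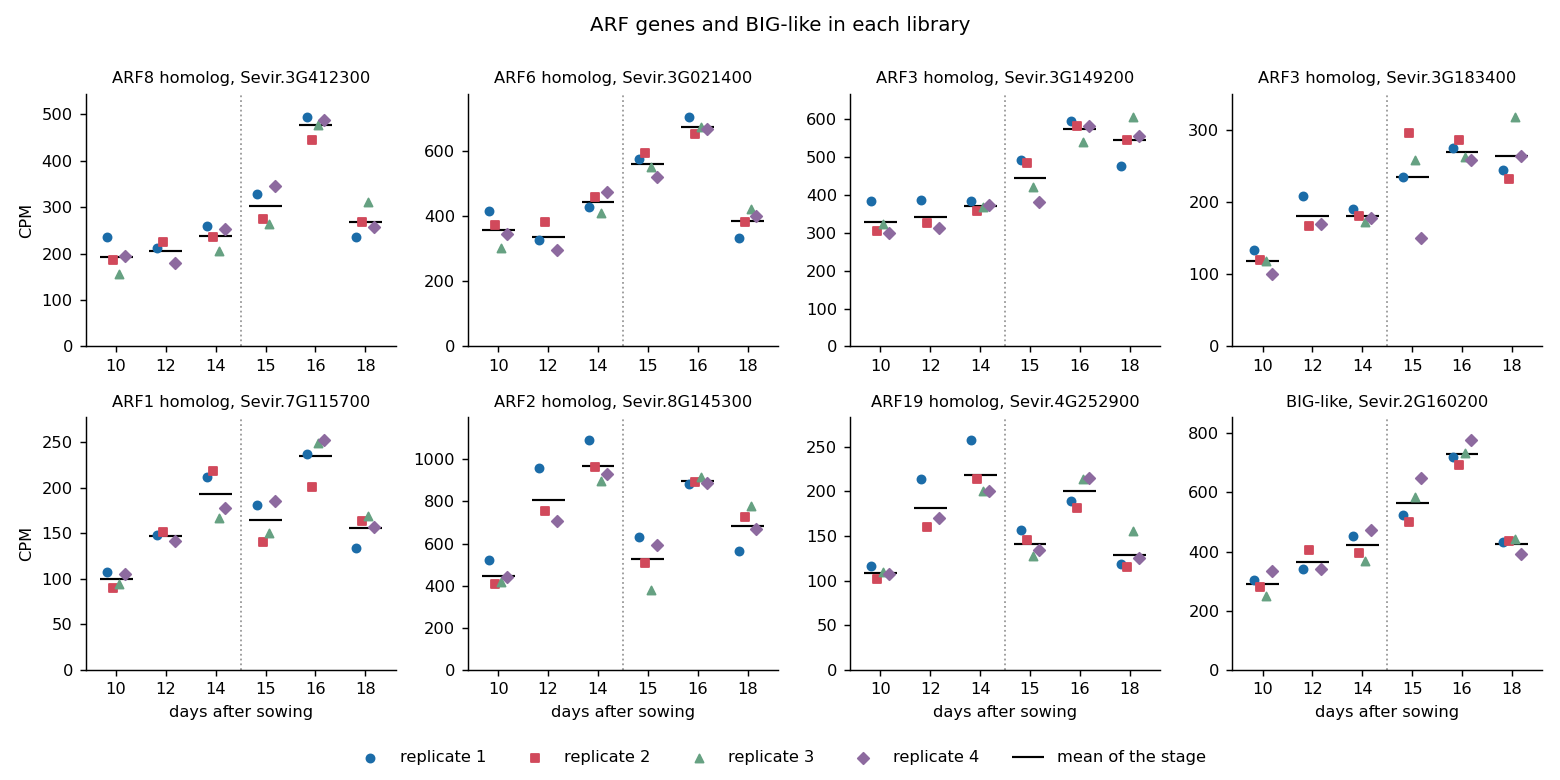
CPM (linear axes from 0) of the 7 ARF genes and BIG-like Sevir.2G160200 in each library by days after sowing, with a marker per replicate, a bar at the stage mean and a dotted line where the sequencing run changed. The ARF8 and ARF6 homologs and BIG-like are highest at 16 DAS in all 4 libraries, both ARF3 homologs stay high at 18 DAS, and the ARF2 homolog dips to between 378 and 629 CPM at 15 DAS.

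The other signaling genes were SvBa1 and 1 Aux/IAA gene. SvBa1 (Sevir.5G374100), the ortholog of maize barren stalk1 and rice LAX PANICLE1, encodes a bHLH transcription factor required for axillary meristems in both species. It held 0.878, 1.71, 0.666 and 0.496 CPM at 10 DAS, 13.9, 10.6 and 10.7 CPM at 12 DAS and 19.4, 27.7, 15.0 and 16.6 CPM at 14 DAS. It held 11.2, 14.6, 9.07 and 7.07 CPM at 15 DAS, 13.4, 12.9, 12.3 and 10.3 CPM at 16 DAS and 12.9, 12.5, 17.4 and 16.2 CPM at 18 DAS. Each of the first 3 stages lay above the one before in every library, and every later library held at least 7.07 CPM. With a log2 fold change of 4.34 (SE 0.28) for 14 against 10 DAS, it had the largest early difference of the list, and the highest stage mean was 21.0 times the lowest. The Aux/IAA gene Sevir.4G058700, similar to rice IAA20, held 2.87, 2.51, 2.06 and 1.70 CPM at 10 DAS and 10.96, 3.96 and 5.82 CPM at 12 DAS. It was at or below 2.20 CPM in all libraries of 15 and 16 DAS and between 2.29 and 3.69 CPM at 18 DAS.

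The response genes include 4 SAUR genes, small genes that respond early to auxin. Sevir.4G278500 held 48.7, 53.0, 54.7 and 51.9 CPM at 14 DAS and 26.3, 26.3, 17.5 and 19.3 CPM at 15 DAS, with no overlap and a log2 fold change of -1.23 (SE 0.13). Sevir.2G306300 lay between 3.88 and 7.46 CPM at 10 and 12 DAS and between 7.77 and 10.7 CPM from 15 DAS on. The other 2 were near the limit of detection. Sevir.2G306100 had from 0 to 20 counts per library, and all 4 libraries of 15 DAS, at 6 to 11 counts and 0.537 to 0.755 CPM, were above those of 14 DAS. Sevir.6G083400 had at most 7 counts in any library, or 0.434 CPM, and was the 1 gene of the 30 with too few counts to be fitted.

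The 4 auxin-repressed genes, of a family named for transcripts that decline under auxin and accumulate in dormant buds, differed widely between libraries of one stage. Sevir.9G187300 held 66.4, 42.8, 88.4 and 38.6 CPM at 10 DAS, 10.7, 21.1 and 17.7 CPM at 12 DAS and 69.9, 159, 64.5 and 74.6 CPM at 14 DAS. It held 552, 65.3, 871 and 1481 CPM at 15 DAS, 153, 59.9, 409.9 and 617 CPM at 16 DAS and 52.3, 264, 156 and 191 CPM at 18 DAS. Replicate 2 of 15 DAS was within the range of 14 DAS, while the other 3 were at least 3-fold above that range. The log2 fold change was 3.01 (SE 0.68) for 15 against 14 DAS. The stage mean of 15 DAS was 742 ± 593 CPM (SD, n = 4) and 968 ± 472 CPM (n = 3) without replicate 2.

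At 15 and 16 DAS the other 3 auxin-repressed genes ordered the libraries in the same way. Sevir.5G112300 was at 0.557, 0.321, 0.620 and 0.340 CPM at 14 DAS and at 13.3, 2.07, 17.8 and 70.8 CPM at 15 DAS. Sevir.9G413300 was at 98.9, 34.2, 162 and 274 CPM at 15 DAS, after 40.0 to 50.7 CPM at 14 DAS. Sevir.6G176400 was at 26.6, 10.9, 32.9 and 67.1 CPM at 15 DAS, after 10.3 to 15.3 CPM at 14 DAS. In all 4 genes replicate 2 was the lowest at 15 DAS, followed by replicates 1, 3 and 4, and the same order held at 16 DAS. At 18 DAS replicate 1 was the lowest for all 4 genes, and at 10 DAS replicate 4 was. At 12 and 14 DAS the genes did not share an order, and replicate 2 of 14 DAS was the highest library for Sevir.9G187300 and the lowest for Sevir.5G112300. The order of Sevir.5G112300 at 14 DAS rests on few counts, since 1 CPM is 16.1 to 18.7 counts in those libraries.

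The spread within a stage was not itself a criterion of the study, but a choice by differences between stage means can favor genes whose mean a few libraries carry, so the values that follow are a description. At 15 DAS the highest library held 22.7 times the lowest for Sevir.9G187300, 34.1 times for Sevir.5G112300, 8.02 times for Sevir.9G413300 and 6.18 times for Sevir.6G176400. The SD of log2 level of Sevir.9G187300 there was 1.97, which 0.196% of the 18924 genes with a stage mean of at least 1 CPM reached. For Sevir.6G176400, with the least spread of these genes, it was 1.06, reached by 1.35%. At 16 DAS the SD of Sevir.9G187300 was 1.502, reached by 0.0488% of 18449 genes.

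At 15 DAS the sum of a list of stress and starvation markers stood in the same order of libraries. The 7 genes summed to 139, 50.5, 191 and 609.7 CPM in replicates 1 to 4 of 15 DAS, and to between 36.5 and 111 CPM in the libraries of all other stages. In replicates 1, 3 and 4 most of that sum was asparagine synthetase (Sevir.3G250200), a gene known in plants for its induction by sugar starvation, which was at 109, 9.27, 157 and 567 CPM in replicates 1 to 4. At 16 DAS this gene followed the order of the auxin-repressed genes, with 19.8, 16.3, 40.3 and 73.8 CPM, but the list did not, with sums of 57.8, 64.5, 76.1 and 110.6 CPM. At 18 DAS the list summed to 89.9, 90.9, 61.7 and 62.1 CPM, so replicate 1, the lowest for all 4 auxin-repressed genes, was among the higher libraries. A dehydrin (Sevir.8G121200), a protein of drying tissue, was at 0.530, 0, 1.13 and 7.14 CPM at 15 DAS. A heat stress transcription factor (Sevir.1G181200) was at 3.601, 0.244, 8.47 and 9.13 CPM at 15 DAS. Both followed the order of the auxin-repressed genes at this stage. The ClpB chaperone (Sevir.1G060900) was instead highest in replicate 2, at 25.7, 40.7, 24.3 and 25.2 CPM, and the 3 small heat shock genes of the list held at most 0.618 CPM at this stage. The leaf list summed to 67.7, 53.8, 62.7 and 95.5 CPM in the same libraries, and library totals were 8964218, 7630744, 15543160 and 14269371 counts. The part of any of these in the levels of the auxin-repressed genes was not tested.

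**Figure D5:**
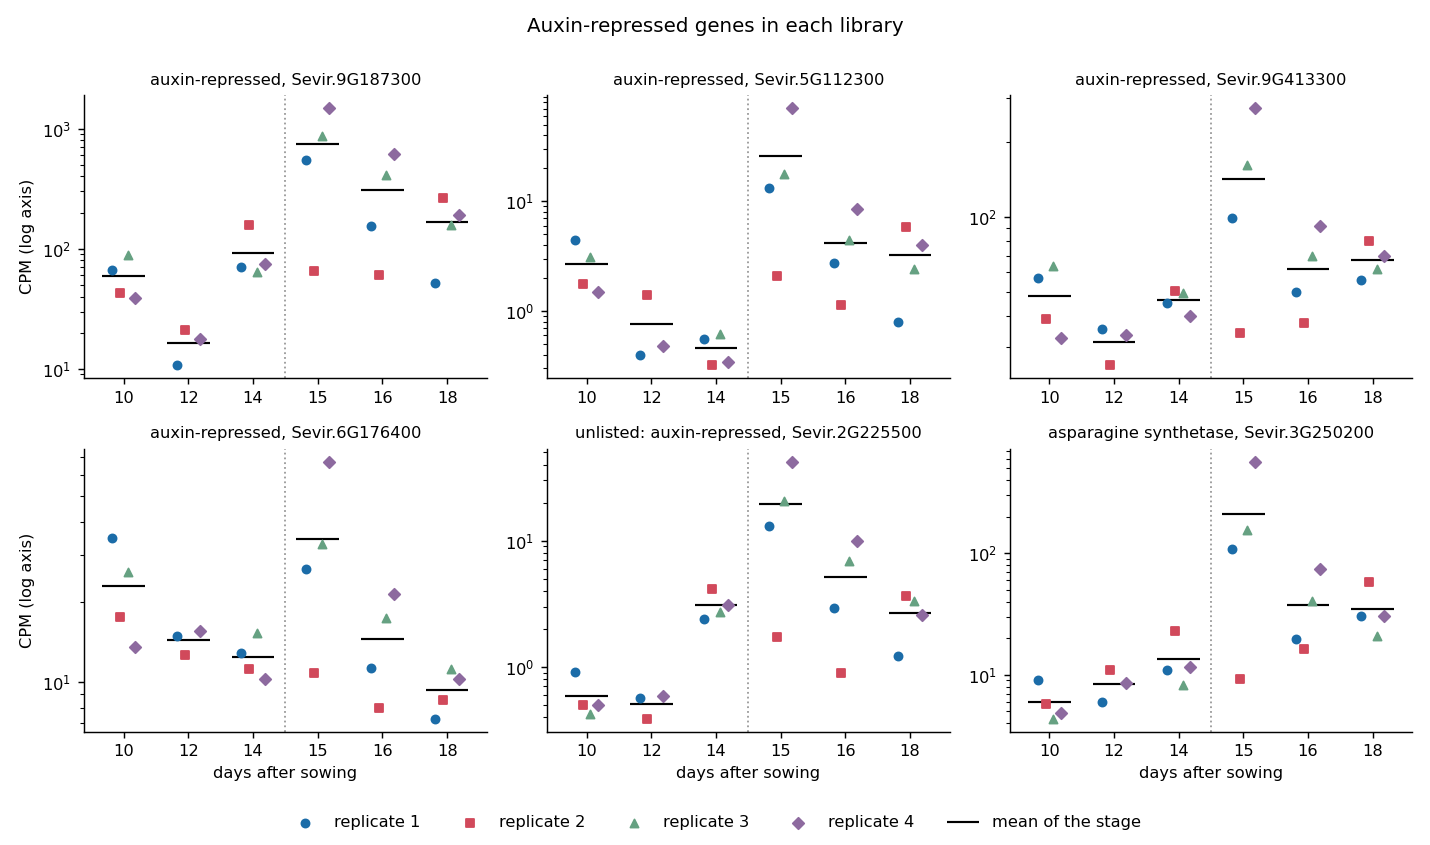
CPM (log axes) of the 4 auxin-repressed genes, of an auxin-repressed gene outside the list (Sevir.2G225500) and of asparagine synthetase in each library by days after sowing, with a marker per replicate, a bar at the stage mean and a dotted line where the sequencing run changed. At 15 and 16 DAS the replicates stand in the order 2, 1, 3, 4 from low to high in all 6 panels, and replicate 2 of 15 DAS lies far below the other 3.

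Counts of listed genes past the threshold of edgeR's quasi-likelihood test (Benjamini-Hochberg adjusted p under 0.05 over 21180 genes) follow, beside the share of all genes called. Because the study picked the genes on these stages, nothing about them is read from the counts. Where a count from another fit is given, the share over all genes in that fit is not. Calls over all genes moved with the setting too, for 14 against 12 DAS from 1116 in the main fit to 1419 with DESeq2. Of the 29 genes that could be fitted, 12 were called higher at 12 than at 10 DAS and 0 lower, beside 6.61% of all genes higher, 7.75% lower and 14.4% in either direction. For 14 against 12 DAS 3 were called higher and 1 lower, beside 2.31% and 2.96% of all genes and 5.27% in either direction. This count of 4 came to 9 in a fit of these 2 stages alone, to 7 without replicate 2 or replicate 4 of 15 DAS, to 2 without replicate 4 of 12 DAS or replicate 1 or 2 of 14 DAS, and to 1 without replicate 1 of 12 DAS or replicate 4 of 14 DAS. For 14 against 10 DAS 17 were higher and 2 lower, beside 20.7% and 21.5% of all genes and 42.1% in either direction. Between 14 and 15 DAS 12 were higher and 11 lower, beside 29.4% and 27.0% of all genes and 56.4% in either direction, and all 4 auxin-repressed genes were among the higher ones. For 16 against 15 DAS 12 were higher and 4 lower, beside 13.8% and 14.8% of all genes and 28.6% in either direction, and 10 were called without replicate 4 of 15 DAS. For 18 against 16 DAS 1 was higher and 10 lower, beside 20.2% and 16.3% of all genes and 36.5% in either direction. For 18 against 15 DAS 4 were higher and 7 lower, beside 22.1% and 20.6% of all genes and 42.7% in either direction, and 7 were called without replicate 4 of 15 DAS. Scaling by library size alone raised the share of higher calls over all genes from 52.1% to 61.9% for 15 against 14 DAS. It lowered that share from 48.2% to 32.6% for 16 against 15 DAS and from 51.8% to 40.7% for 18 against 15 DAS.

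By class, the median log2 fold change for 14 against 10 DAS was 0.86 in signaling, 0.81 in transport, 0.30 in synthesis and metabolism and -0.05 in response, beside 0.01 over all genes tested. For 15 against 14 DAS the medians were -0.23, -0.21, -0.82 and 1.63, beside 0.03 over all genes. Within response, the auxin-repressed genes lay between 1.49 and 5.84 at this step. The fitted SAUR genes were at -1.23 (Sevir.4G278500), 0.27 (Sevir.2G306300) and 1.64 (Sevir.2G306100, of few counts). For 16 against 15 DAS the class medians were 0.37, 0.29, 0.46 and -1.20, beside -0.03. For 18 against 16 DAS all 4 were negative, at -0.39, -0.54, -0.52 and -0.36. The selection fixed a minimum change between stages, and on the CPM scale the smallest ratios of the highest to the lowest stage mean inside the list were 1.75 (Sevir.3G149200), 1.78 (Sevir.5G016900) and 1.79 (Sevir.1G232100). Outside it, among the 4 auxin genes taken without regard to expression that could be fitted, the ratio was 1.49 for the Aux/IAA gene Sevir.1G029300, 1.70 for the ARF gene Sevir.1G089100, 2.09 for the ARF gene Sevir.1G075700 and 2.37 for the SAUR gene Sevir.1G073900, so genes outside the list lay on both sides of its smallest ratios.

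A further 6 auxin genes outside the list, read from the study's annotation in genome order without regard to expression, were tested because no stage profile had chosen them. For each of them 15 against 14 DAS spans the change of sequencing run, so run and stage cannot be told apart there. Of all genes, 56.4% were called in that comparison. The SAUR genes Sevir.1G088500 and Sevir.1G088600 had too few counts to be fitted. Sevir.1G089100, an ARF related to rice ARF5, held 197, 133, 153 and 122 CPM at 10 DAS, 312, 187, 229 and 203 CPM at 14 DAS and 179.5, 204, 138 and 124 CPM at 15 DAS. It held 207, 254, 208 and 195 CPM at 16 DAS and 121, 122, 178 and 125 CPM at 18 DAS. All 4 libraries of 16 DAS were above those of 18 DAS, and the gene fell by 0.66 on the log2 scale for 18 against 16 DAS (SE 0.20, edgeR adjusted p = 0.0118). It was higher at 14 than at 10 DAS (log2 fold change 0.62, SE 0.20, edgeR adjusted p = 0.0148). That call was lost without replicate 2 of 10 DAS (edgeR adjusted p = 0.0511), replicate 4 of 10 DAS (0.0510) or replicate 1 of 14 DAS (0.0859). It was lower at 15 than at 14 DAS (-0.53, SE 0.20, edgeR adjusted p = 0.0264), a call lost without replicate 1 of 14 DAS (0.140) and without replicate 3 (0.0872) or 4 (0.0925) of 15 DAS, and with library size scaling alone (0.0800). For 16 against 15 DAS it was called only without replicate 2 of 15 DAS (0.0434) and without replicates 1 and 2 of that stage (0.0197).

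Sevir.1G029300, an Aux/IAA gene related to rice IAA7, was lower at 15 DAS than at 14 and 16 DAS. It held 95.0, 90.0, 80.6 and 73.4 CPM at 14 DAS, 78.6, 74.5, 48.4 and 48.3 CPM at 15 DAS and 91.2, 88.9, 101 and 91.4 CPM at 16 DAS. The libraries of 15 DAS were all below those of 16 DAS, and replicates 3 and 4 were the lowest of the series. The log2 fold change was 0.58 for 16 against 15 DAS (SE 0.15, edgeR adjusted p = 0.00515), and under the alternatives its adjusted p was at most 0.0361. For 15 against 14 DAS it was -0.45 (SE 0.15, edgeR adjusted p = 0.0118), no longer past the threshold without replicate 3 (0.0646) or replicate 4 (0.0544) of 15 DAS or with library size scaling alone (0.0513). For 18 against 15 DAS it was 0.37 (SE 0.15, edgeR adjusted p = 0.0454), a call lost without any of 13 of the 23 libraries, where the adjusted p reached 0.181, and with library size scaling (0.122), with no filter (0.0696) and in a fit of these 2 stages alone (0.142).

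Across the change of sequencing run, the ARF gene Sevir.1G075700, related to rice ARF6, was higher at 15 than at 14 DAS (log2 fold change 0.46, SE 0.13, edgeR adjusted p = 0.00548). It held 99.6, 90.6, 87.0 and 97.7 CPM at 14 DAS, 116, 104, 134 and 159 CPM at 15 DAS and 150.3, 228, 151 and 192 CPM at 18 DAS. The libraries of 14 DAS lay below all of 15 DAS. It was also higher at 18 than at 15 DAS (log2 fold change 0.49, SE 0.13, edgeR adjusted p = 0.00471), a call lost in a fit of these 2 stages alone (0.0527) and without replicates 1 and 2 of 15 DAS (0.101). For 16 against 15 DAS it was called only without replicate 4 of 15 DAS (log2 fold change 0.40, edgeR adjusted p = 0.0307). The SAUR gene Sevir.1G073900 was past the threshold in none of the 7 comparisons by edgeR, with adjusted p from 0.0614 to 0.896. Without replicate 2 of 15 DAS it was lower at 15 than at 14 DAS (-1.26, edgeR adjusted p = 0.00540), and without replicates 1 and 2 of that stage as well (0.0144), where replicate 2 held 2.20 CPM and the other 3 between 0.686 and 0.835 CPM. Without replicate 1 of 16 DAS the same comparison had an adjusted p of 0.0482 by edgeR, and 18 against 16 DAS one of 0.0288. For 18 against 15 DAS this gene was called without replicate 2 of 15 DAS (1.33, edgeR adjusted p = 0.00562), without replicates 1 and 2 of that stage (0.0145), without replicate 1 of 16 DAS (0.0467) and without replicate 2 of 18 DAS (0.0367).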

How the data were processed

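RNA-seq was made from 23 pools of inflorescence primordia at 6 stages. The authors ran Salmon (v0.8.1, per the labels) and tximport on the primary transcripts of annotation v1.1 and deposited the resulting expected counts, not normalized, in 1 table (8.77% of values had a fraction). Stages and replicate numbers come from the labels. Counts were rounded to whole numbers, scaled by TMM and filtered by filterByExpr per stage. A mean for each stage was then fitted over all libraries in edgeR 4.0.16 (R 4.3.3), with the quasi-likelihood F-test, two-sided, adjusted by the Benjamini-Hochberg method over 21180 genes. The threshold was an adjusted p of 0.05, and SEs were derived from the log2 fold change and its F statistic. The study analyzed TPM, which was not used here.

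The rule named all 30 listed genes, by class, under the study's gene IDs. The values of 1 transport gene are not reported here, but it is in the counts and class medians. The members, the gene lists and the comparisons were chosen with earlier results of these data known. At the lowest total, 1 CPM is 8.20 counts, and at the highest 25.1. The 33 pairs of libraries of a stage differed by more than counting noise (chi-square per degree of freedom 3.54 to 42.4), so none was counted as a copy. P-values measure the spread between pools of primordia. Alternatives were DESeq2 1.42.0, library size scaling, no filter or at least 10 counts in every library, a fit of 2 stages alone, a replicate block, each library left out in turn, replicates 1 and 2 of 15 DAS left out, and pseudocounts of 0.1 and 1 in place of 0.5 CPM. Tested on simulated counts with 200 genes changed 2-fold, edgeR recovered 75.5% for 14 against 10 DAS and 71.0% for 18 against 15 DAS, with 6.79% and 5.33% of its calls false. DESeq2 recovered 77.0% and 73.5%, with 14.9% and 12.5% false. The limit first set on false calls, 12% for every tool, was dropped for DESeq2 after it was exceeded, and DESeq2 stayed an alternative. No sequences of these genes were used here.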

Additional observations from a re-analysis of the deposited data

Results flagged for a closer look

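Of 150 groups of 4 libraries (30 genes at the 5 stages with 4 libraries), 3 held 1 library far from the other 3 by Dixon's gap test, and chance flags about 1 group in 20. The PIN4 homolog Sevir.5G249500 was at 40.5 CPM in replicate 2 of 14 DAS and between 28.8 and 30.1 CPM in the others. The auxin-repressed gene Sevir.9G187300 was at 159 CPM in the same library and between 64.5 and 74.6 CPM in the others. The SAUR gene Sevir.2G306100 was at 0.537 CPM in replicate 3 of 15 DAS, from 9 counts, and between 0.732 and 0.755 CPM in the others.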

How the results depend on the processing

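No result changed its direction among called values. The count of listed genes called for 14 against 12 DAS was 4 and came to 7 with DESeq2, 7 without replicates 1 and 2 of 15 DAS and 9 in a fit of the 2 stages alone, and lay between 1 and 7 with each library left out. Over all 21180 genes tested, 1116 were called for this comparison in the main fit and 1419 with DESeq2. Calls over all genes thus moved with the setting too, and nothing about the listed genes is read from the counts in this section. For 18 against 15 DAS the count of 11 was 7 in a fit of the 2 stages alone and between 7 and 12 with each library left out, and for 16 against 15 DAS the count of 16 lay between 10 and 19. The median response gene at 12 DAS was at -0.56 with a pseudocount of 0.1, against -0.43. Of the 4 fitted genes outside the list, 3 were called for 15 against 14 DAS, 1 with library size scaling and between 1 and 4 with each library left out. For 14 against 10 DAS the count of 1 lay between 0 and 1. For 16 against 15 DAS the count of 1 was 2 without replicates 1 and 2 of 15 DAS and between 1 and 2 with each library left out. For 18 against 16 DAS the count of 1 was 2 in a fit of the 2 stages alone and between 1 and 2 with each library left out. For 18 against 15 DAS the count of 2 was 1 with library size scaling, 1 with no filter and 0 in a fit of the 2 stages alone, and lay between 1 and 3 with each library left out. Causes were not tested. Replicate numbers showed no pairing over the series as a whole. The deviations of same-numbered libraries had a median correlation of 0.02 over 55 pairs (-0.32 to 0.53), beside 0.01 over 165 pairs of different number (-0.53 to 0.43). Of 23 libraries, 9 correlated best with their own number. A median over all pairs of stages cannot show whether the numbers link 2 particular stages, such as 15 and 16 DAS. With the replicate block the counts of listed genes were 12, 3, 19, 23, 17, 11 and 12 for 12 against 10, 14 against 12, 14 against 10, 15 against 14, 16 against 15, 18 against 16 and 18 against 15 DAS. The shares over all genes with the block are not given here, so nothing is read from these counts. Depth limits the SAUR genes Sevir.6G083400 and Sevir.2G306100 most.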

Other observations

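Of 14 further auxin genes that the study had chosen by expression and did not put in the list, 7 were highest at 18 DAS and 5 at 15 DAS. Their values are a description, with no test, and 2 of the 5 highest at 15 DAS, Sevir.5G435500 and Sevir.1G256200, had a highest stage mean of only 1.39 and 1.06 CPM. Among the 7 highest at 18 DAS, Sevir.1G242800 had a highest stage mean of only 0.0855 CPM, from at most 2 counts per library. For Sevir.1G148000 and Sevir.6G247900, also of those 7, it was 1.26 and 1.503 CPM. The auxin-repressed gene Sevir.2G225500 held 2.39, 4.17, 2.73 and 3.06 CPM at 14 DAS and 13.03, 1.71, 20.5 and 42.1 CPM at 15 DAS, so replicate 2 was below the range of 14 DAS and the other 3 above it. At 16 DAS it held 2.91, 0.889, 6.89 and 9.94 CPM, in the same order of replicates as the 4 listed auxin-repressed genes. The Aux/IAA gene Sevir.7G068000 held 4.40 to 5.09 CPM at 14 DAS and 12.8, 6.83, 20.6 and 30.3 CPM at 15 DAS, and Sevir.6G117400, of the same family, held 0.907 to 1.23 CPM and then 3.39, 2.56, 6.62 and 9.27 CPM. In both, replicate 2 of 15 DAS was the lowest and replicate 4 the highest of that stage, and all 4 libraries of 15 DAS were above those of 14 DAS.

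Of the 7 highest at 18 DAS, the efflux carrier Sevir.2G313400 held 1.36 to 2.23 CPM at 14 DAS and 14.2, 15.1, 9.65 and 16.4 CPM at 18 DAS. Its highest stage mean was 8.57 times its lowest, beside 5.45 times for the listed PIN4 homolog Sevir.5G249500, which was also highest at 18 DAS.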
